A study of Mus musculus with 6 samples.

Results

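Cytochrome P450 family 2 was followed in liver RNA from mice with and without a point mutation in peroxiredoxin 1. Its members were the rows of the gene table named Cyp2 followed by 1 subfamily letter and a number. This gave 42 of 28601 genes, with pseudogenes left out. The livers came from 3 WT male mice and 3 male mice carrying PRDX1 Cys52Ser, a serine in place of the catalytic cysteine of a peroxide-reducing enzyme. All 6 mice were 8 weeks old when they went on CDAHFD, the choline-deficient, amino acid-defined, high-fat diet used to produce steatohepatitis and fibrosis, and stayed on it for 8 weeks per the titles and design text. The treatment field instead counts from 8 to 10 weeks over the WT mice and from 11 to 13 weeks over the Cys52Ser mice; if that field were right, genotype and time on diet could not be told apart. Whether 1 or both alleles carried the mutation is not stated. No group on a normal diet was compared, so the values describe a genotype difference within diseased liver. Because the mutation changes 1 codon and not the amount of RNA by design, RNA levels could not check the genotype labels.

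Cytochromes P450 are haem enzymes of the endoplasmic reticulum that insert oxygen into their substrates with electrons passed on by P450 oxidoreductase. Family 2 is the main family for drugs, toxicants, steroids and polyunsaturated fatty acids in mouse liver, where it is made mostly by hepatocytes and, for many members, mostly by those around the central vein. In mice its subfamilies have expanded into clusters of near-copies. Several are set by sex through growth hormone, and several respond to the receptors CAR and PXR.

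The sequences shown first are the 250 bases before the RefSeq start of the 4 genes that changed with genotype and of Cyp2e1, the most abundant member, so that the motifs at their starts can be compared. They were read from RefSeq promoters (build GRCm38.p6), which held 35 of the 42 members. Capitals mark a match, on either strand, to one of the motifs TATAAA, CAAAGTCCA, TTCNNNGAA and TTGCNNAA, the letters of a TATA box and of HNF4A, STAT5 and C/EBP sites, or to a CAR/PXR direct repeat. The windows are chr15:82794246-82794495 (minus strand) for Cyp2d26, chr7:27119705-27119954 (plus) for Cyp2f2, chr19:39992174-39992423 (plus) for Cyp2c37, chr7:27028840-27029089 (plus) for Cyp2a12 and chr7:140763569-140763818 (plus) for Cyp2e1. RefSeq and the gene table place some starts differently, so the last 80 bases of the Cyp2e1 window, 49 of Cyp2d26, 46 of Cyp2f2 and 9 of Cyp2a12 lie inside the gene as the table gives it.
Cyp2d26: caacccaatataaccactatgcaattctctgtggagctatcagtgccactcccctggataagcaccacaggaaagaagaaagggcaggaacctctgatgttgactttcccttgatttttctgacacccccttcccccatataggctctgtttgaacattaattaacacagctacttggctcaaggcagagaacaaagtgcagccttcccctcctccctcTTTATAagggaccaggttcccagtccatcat
Cyp2f2: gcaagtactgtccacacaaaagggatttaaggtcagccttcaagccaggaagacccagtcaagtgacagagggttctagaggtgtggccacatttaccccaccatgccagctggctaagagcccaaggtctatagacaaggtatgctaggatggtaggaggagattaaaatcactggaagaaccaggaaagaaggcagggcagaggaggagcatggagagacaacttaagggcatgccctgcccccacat
Cyp2c37: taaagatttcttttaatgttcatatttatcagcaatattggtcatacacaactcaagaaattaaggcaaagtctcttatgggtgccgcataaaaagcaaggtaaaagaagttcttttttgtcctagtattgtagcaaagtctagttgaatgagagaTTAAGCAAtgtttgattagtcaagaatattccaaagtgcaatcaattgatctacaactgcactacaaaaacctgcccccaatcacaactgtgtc
Cyp2a12: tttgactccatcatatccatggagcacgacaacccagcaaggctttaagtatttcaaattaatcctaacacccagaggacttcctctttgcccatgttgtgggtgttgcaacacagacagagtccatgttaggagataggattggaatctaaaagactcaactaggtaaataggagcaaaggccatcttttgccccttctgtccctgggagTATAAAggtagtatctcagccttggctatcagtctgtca
Cyp2e1: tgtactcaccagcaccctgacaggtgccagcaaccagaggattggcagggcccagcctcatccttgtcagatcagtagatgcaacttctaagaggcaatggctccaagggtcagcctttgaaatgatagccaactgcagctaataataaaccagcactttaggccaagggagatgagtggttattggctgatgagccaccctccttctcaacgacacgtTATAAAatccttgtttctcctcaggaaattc
Cyp2d26, Cyp2a12 and Cyp2e1 had TATAAA close to the start, Cyp2c37 had TTGCNNAA, and the Cyp2f2 window held none of the 5 motifs. TATAAA was present in 17 of 35 member promoters (48.6%), against 12.4% of all 32851 promoters in the table. CAAAGTCCA was present in 6 (17.1%), against 0.384% of all. Those 6 were all subfamily 2C genes (Cyp2c40, Cyp2c65, Cyp2c67, Cyp2c68, Cyp2c69 and Cyp2c70), and none of them passed the test below. TTGCNNAA was present in 11 (31.4%), against 9.56%. TTCNNNGAA was in 0 of 35, against 7.02%, and the CAR/PXR repeat was in 0 of 35 and in 0 of all promoters. For Cyp2c29 and Cyp2d9 the RefSeq start lay 17680 and 18940 bases from the table's, and without them TATAAA was in 15 of 33 (45.5%), with the other counts as before. No matches within 1 promoter overlapped. Some windows are near-copies, such as those of Cyp2c68 and Cyp2c69 (91.3% identical), Cyp2a5 and Cyp2a4 (97.6%) and Cyp2b13 and Cyp2b9 (99.2%). The member shares therefore count related sequences more than once.

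Before the results, the libraries themselves differed. Estimated counts summed to between 53318196 and 73900923 per library. TMM factors, which correct for RNA composition, were 1.05 to 1.21 in WT and 0.814 to 0.963 in Cys52Ser, so fold changes depend on the scaling. With library totals alone, all genes had a median log2 fold change of -0.35, against -0.00 with TMM. Albumin took 3.60%, 5.30% and 5.55% of counts in the WT livers and 8.08%, 8.26% and 8.49% in the Cys52Ser livers. The 17 hepatocyte markers had summed levels of 37721 to 51428 FPKM in WT and 62104 to 66714 in Cys52Ser, with 1 of 17 (Cps1) called higher and 11 of 17 higher without overlap. Of the 11 hepatic stellate cell markers 5 fell (summed 232 to 459.7 FPKM in WT and 111 to 176 in Cys52Ser), of the 10 macrophage markers 4 fell and 1 (Clec4f, of Kupffer cells) rose (1739 to 2679 and 847 to 1070.0 FPKM), and of the 10 cholangiocyte markers 2 fell (27.6 to 76.3 and 8.46 to 52.6 FPKM). Of the 8 markers of liver sinusoidal endothelium 3 rose (Kdr, Cdh5 and Dnase1l3), with summed levels that overlapped between groups (72.9 to 81.2 FPKM over the 6 libraries). By the test given below, 2.52% of all tested genes were called higher and 2.46% lower. Without overlap, 14.4% of all tested genes lay higher and 15.2% lower. In whole liver, fewer cells of a type and less RNA per cell cannot be told apart. All comparisons below are Cys52Ser against WT, tested with edgeR's quasi-likelihood test on TMM-scaled counts, and a gene is said to have changed where its Benjamini-Hochberg adjusted p over 18648 tested genes was under 0.05.

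Family 2 RNA was more abundant in the Cys52Ser livers, and 4 members rose: Cyp2d26, Cyp2f2, Cyp2c37 and Cyp2a12. These were 4 of 38 members with enough counts to test (10.5%), against 2.52% of all tested genes called higher. No member fell, by edgeR or by DESeq2, against 2.46% of all tested genes called lower by edgeR. At an unadjusted p under 0.05, 0 members were lower, and the share of all genes lower at that threshold was not computed. Direction was more uniform than the calls. The log2 fold change was above 0 for 35 of 38 tested members and below 0 for 3, with a median of 0.75. In 19 of 38 (50.0%), every Cys52Ser library lay above every WT library, against 14.4% of all tested genes, and 0 members had the opposite order, against 15.2% of all (29.7% in either order). At an unadjusted p under 0.05, 19 members were higher, against 11.3% of all genes. DESeq2 called 19 members, all higher, against 7.42% of all genes called higher and 6.77% lower by that tool.

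**Figure D1:**
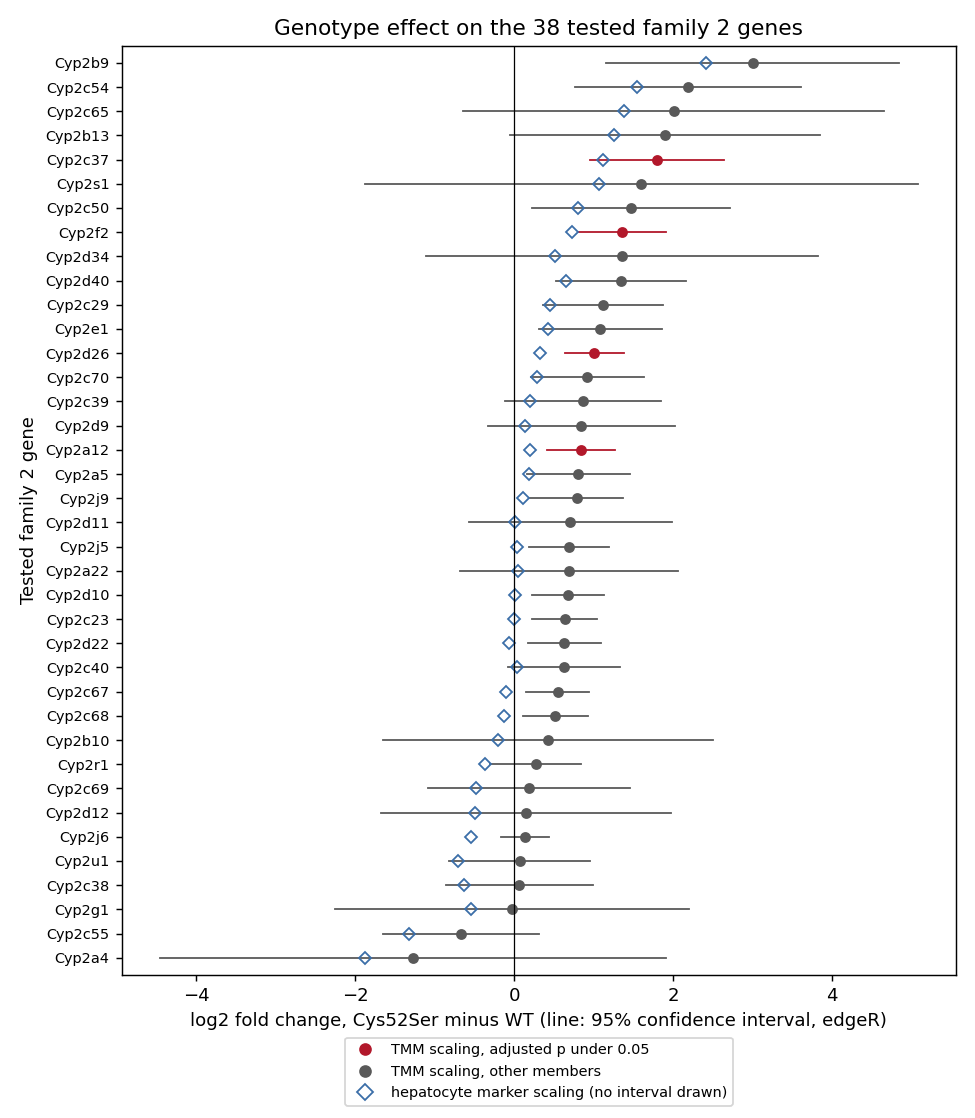
log2 fold change (Cys52Ser minus WT, x axis) of each tested family 2 gene (y axis), with 95% confidence intervals from edgeR; filled circles are TMM-scaled, red for the 4 that changed, and open diamonds are the same genes scaled on hepatocyte markers. 35 of 38 circles lie right of 0, and the diamonds lie left of the circles, with 24 right of 0 and 14 left.

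The size of the shift depended on the scaling. When libraries were scaled on the 17 hepatocyte markers instead of TMM, a scaling chosen after seeing the data, the median log2 fold change of the 38 members was 0.08, with 24 above 0 and 14 below, while that of all genes was -0.67. Under that scaling Cyp2b9 and Cyp2f2 were called higher, against 0.499% of all genes called higher and 23.2% lower. All-gene calls were 469 higher and 459 lower with TMM, 293 and 2724 with library totals alone, and 93 and 4318 with hepatocyte scaling. With library totals alone, 29 members were above 0 and 9 below, with a median of 0.39, and the 4 genes kept their calls, joined by Cyp2b9, against 1.57% of all genes called higher and 14.6% lower.

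Family 2 took 0.956%, 0.684% and 1.11% of all counts in the WT livers and 1.38%, 1.41% and 1.52% in the Cys52Ser livers. FPKM counts fragments per length and library total, so it allows levels of different genes to be set side by side. Summed over the 42 members, the level was 3934, 2865 and 4527 FPKM in WT and 5637, 5803 and 6341 FPKM in Cys52Ser. The lowest Cys52Ser liver thus lay above the highest WT liver, and WT replicate 2 was the lowest of all 6.

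Levels spread over several orders of magnitude. By mean FPKM over the 6 libraries, 11 members were over 100, 11 were between 10 and 100, 9 were between 1 and 10 and 11 were under 1. The order at the top was Cyp2e1, Cyp2a5, Cyp2d26, Cyp2f2, Cyp2d10, Cyp2c50, Cyp2a12, Cyp2d9, Cyp2j5, Cyp2c70, Cyp2c23 and Cyp2c68, and from Cyp2a5 down each overlapped its neighbour in its range over the 6 libraries. On the TMM scale, 10 of 11 members over 100 FPKM lay higher without overlap, then 7 of 11, 2 of 9, and 0 of the 7 tested members under 1 FPKM. Of all tested genes at any level, 14.4% did. The share among all genes of like abundance was not computed, and the part of low counts in this order was not tested. The median log2 fold changes of those 4 classes were 0.85, 0.63, 0.69 and 0.43 from the most to the least abundant. On the FPKM scale, 12 of the 38 tested members were higher without overlap, against 4.71% of all tested genes, and 1 (Cyp2c55) was lower, against 37.7%.

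**Figure D2:**
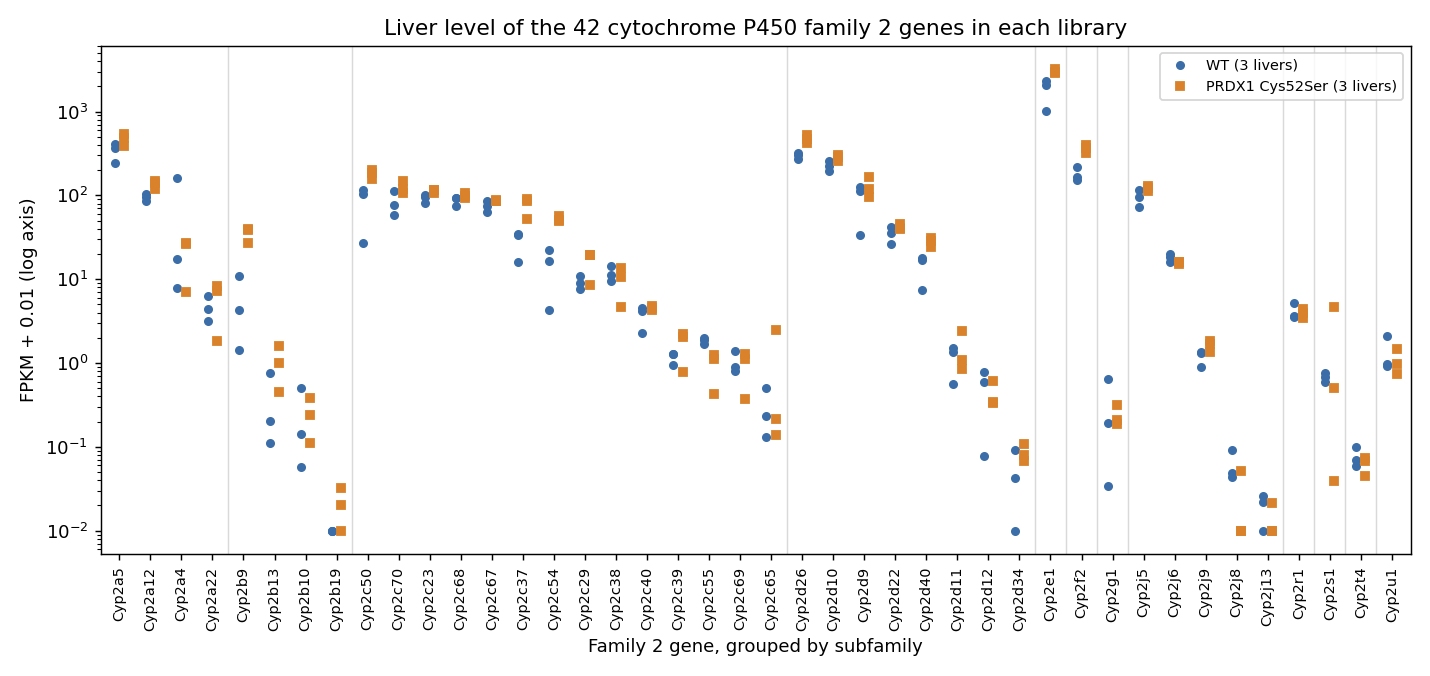
FPKM plus 0.01 (log y axis) of the 42 family 2 genes (x axis, by subfamily) in each of 3 WT (circles) and 3 Cys52Ser (squares) livers. Cyp2e1 stands highest, at 1011 to 3219.7 FPKM, and Cyp2b19 is listed at 0 in all WT livers.

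Cyp2e1, which oxidises ethanol and paracetamol and marks the hepatocytes around the central vein, was the largest single source of family 2 RNA. Its gene lies at chr7:140763739-140774987. Its level was 2089, 1011 and 2336 FPKM in WT and 2877, 3004 and 3219.7 FPKM in Cys52Ser. The groups did not overlap, and WT replicate 2 was less abundant than any other library by a wide margin. TMM-scaled CPM, to which the fold change refers, was 4190, 2167 and 5495 in WT and 8017, 7632 and 9506 in Cys52Ser. The log2 fold change was 1.09 (SE 0.33, 2.12-fold), which did not pass the test (edgeR adjusted p = 0.108), and it was 0.74 without WT replicate 2 (adjusted p = 0.143).

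Cyp2f2, which activates naphthalene and marks periportal hepatocytes, rose. It is encoded at chr7:27119909-27133660, where the antisense gene Gm15883 overlaps 6194 of its bases, and since no source used here states whether counting used strand, its reads could include those of the antisense gene. TMM-scaled CPM was 284, 330.5 and 487 in WT and 1032, 773 and 1023 in Cys52Ser. The lowest Cys52Ser library was well above the highest WT library. The log2 fold change was 1.36 (SE 0.24, 2.57-fold, edgeR adjusted p = 0.0302). It was 0.73 with hepatocyte scaling (adjusted p = 0.0227), and Cyp2f2 was the only 1 of the 4 called under every scaling, including RLE size factors and library totals.

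With a pericentral and a periportal member both higher, the balance between them was measured directly. The Cyp2e1 to Cyp2f2 FPKM ratio was 13.9, 6.15 and 10.6 in WT and 7.29, 9.26 and 8.72 in Cys52Ser. The Cys52Ser ratios lay inside the WT range, and the mean log2 ratio differed by -0.21 (exact two-sided permutation p = 0.6; 3 against 3 cannot give less than 0.1). Among zonal genes outside the family, 1 of 21 pericentral genes (median 0.62) rose, against 2.52% of all tested genes. It was Cyp7a1, the rate-limiting enzyme of bile acid synthesis (log2 fold change 2.17, edgeR adjusted p = 0.0243). Of 24 periportal genes (median 0.86) 6 rose, against the same 2.52%. Hal (1.36), Asl (1.54), Uroc1 (0.94) and Cps1 (1.40), enzymes of amino acid breakdown and the urea cycle, had the smallest p. Without overlap on the TMM scale, 13 of 21 pericentral and 14 of 24 periportal genes lay higher, against 14.4% of all tested genes. Summed pericentral levels were separate, at 1373 to 2223 FPKM in WT and 2277 to 2809 in Cys52Ser. Summed periportal levels overlapped, at 2324 to 4259 FPKM in WT and 4033 to 5094 in Cys52Ser. Glul, glutamine synthetase of the innermost pericentral cells, was 1104, 478 and 1123 CPM in WT and 1475, 1662 and 2138 CPM in Cys52Ser (log2 fold change 0.96, adjusted p = 0.148).

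In subfamily 2A, Cyp2a12, a hydroxylase of steroids and bile acids, rose. The gene is at chr7:27029081-27037375. Its level was 278, 327 and 393 CPM in WT and 528, 565 and 698 CPM in Cys52Ser. Every Cys52Ser library was above every WT library, with a log2 fold change of 0.84 (SE 0.18, 1.79-fold, edgeR adjusted p = 0.0469). With hepatocyte scaling it was 0.20 (adjusted p = 0.322). Its coding sequence is 97.0% identical to that of Cyp2a22, so reads may have been split between them and both values are uncertain.

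Cyp2a5, the coumarin hydroxylase and the second most abundant member, was 469, 753 and 921 CPM in WT and 1028, 1173 and 1547 CPM in Cys52Ser. The groups were separate on this scale but overlapped in FPKM, and the log2 fold change of 0.81 did not pass (adjusted p = 0.141). Its near-copy Cyp2a4, a testosterone hydroxylase high in females (98.4% coding identity), went the other way in 1 library only. Reads may have been split between Cyp2a5 and Cyp2a4, so both values and their ratio are uncertain. Cyp2a4 was 7.75, 160.5 and 17.5 FPKM in WT and 7.00, 26.6 and 26.7 FPKM in Cys52Ser. WT replicate 2 was many times above the other 5 libraries, the Cyp2a4 to Cyp2a5 ratio there was 0.439 against 0.0182 to 0.0553 elsewhere, and the log2 fold change was -1.27 with that library and 0.91 without it (adjusted p = 0.627 and 0.581).

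Subfamily 2B holds the classic targets of CAR, the receptor for phenobarbital-like inducers. Cyp2b10, the best known of them, was nearly silent, at 0.101, 1.05 and 0.329 CPM in WT and 0.291, 0.589 and 1.11 CPM in Cys52Ser. The groups overlapped, with a log2 fold change of 0.43 (SE 0.89, adjusted p = 0.832). Cyp2b9, normally a female gene in mouse liver, had the largest fold change of the family in these male livers. It was 2.49, 20.3 and 8.79 CPM in WT and 64.9, 84.7 and 103 CPM in Cys52Ser. Every Cys52Ser library was above the highest WT library, but the WT livers also differed widely among themselves, and the log2 fold change of 3.00 (SE 0.75, 8.02-fold) missed the threshold (edgeR adjusted p = 0.0832). It passed with library totals alone (0.0470), in limma on FPKM (0.0341, where 1.73% of all genes were called higher and 13.4% lower) and with hepatocyte scaling (0.0394).

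The neighbouring Cyp2b13, also a female gene, was far lower, at 0.177, 1.40 and 0.399 CPM in WT and 1.07, 2.23 and 4.06 CPM in Cys52Ser. Its groups overlapped, and a 3.73-fold higher mean did not pass (adjusted p = 0.234). The Cyp2b9 to Cyp2b13 FPKM ratio was 14.2, 14.6 and 22.4 in WT and 61.4, 38.3 and 25.4 in Cys52Ser, which was not tested. The starts of the pair, printed because their levels differ so widely, are 99.2% identical over 250 bases (Cyp2b9 at chr7:26173159-26173408 and Cyp2b13 at chr7:26061245-26061494, both plus strand, RefSeq, GRCm38.p6). Capitals mark here the bases at which they differ, T48C and C104T, counted from 1 at the 5′ end with the Cyp2b9 base first.
Cyp2b9: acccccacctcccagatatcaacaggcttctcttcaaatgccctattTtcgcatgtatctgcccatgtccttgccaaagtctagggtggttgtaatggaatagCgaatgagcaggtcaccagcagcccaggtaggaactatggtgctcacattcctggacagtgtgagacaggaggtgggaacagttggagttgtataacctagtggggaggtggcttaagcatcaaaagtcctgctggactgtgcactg
Cyp2b13: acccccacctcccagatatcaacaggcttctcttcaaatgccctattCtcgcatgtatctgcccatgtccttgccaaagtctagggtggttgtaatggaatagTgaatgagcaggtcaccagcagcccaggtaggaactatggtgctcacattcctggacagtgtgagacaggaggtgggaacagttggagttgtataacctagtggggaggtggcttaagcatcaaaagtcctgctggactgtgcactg
Both windows hold TTGCNNAA at -180 to -173, which neither difference touches. Cyp2b19, an epoxygenase of skin, was listed at 0 counts in all WT livers and had 10 counts in the Cys52Ser livers.

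Subfamily 2C, the largest with 14 members, includes most liver enzymes that turn arachidonic and linoleic acid into epoxides and alcohols. Its summed level was 491, 391 and 594 FPKM in WT and 732, 758 and 813 FPKM in Cys52Ser, without overlap. On the TMM scale 8 of 14 were higher without overlap, against 14.4% of all tested genes, and 1 (Cyp2c37) passed the test, against 2.52% of all called higher. Cyp2c37, an arachidonate hydroxylase at chr19:39992424-40012243, was 58.8, 29.0 and 66.8 CPM in WT and 123, 187 and 227 CPM in Cys52Ser. The groups were clearly apart, with a log2 fold change of 1.80 (SE 0.36, 3.47-fold, edgeR adjusted p = 0.0432), and 1.11 with hepatocyte scaling (adjusted p = 0.0534).

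Cyp2c37, Cyp2c50 and Cyp2c54 are neighbours on chromosome 19 with high coding identity (96.1% between Cyp2c37 and Cyp2c50, 95.2% between Cyp2c54 and Cyp2c50), so each value is uncertain. Cyp2c50 was 284, 78.5 and 371 CPM in WT and 599, 628 and 808 CPM in Cys52Ser (log2 fold change 1.47, adjusted p = 0.157). Cyp2c54 was 27.1, 7.51 and 43.7 CPM in WT and 131, 103 and 123 CPM in Cys52Ser (log2 fold change 2.19, adjusted p = 0.0914). For all 3 genes WT replicate 2 was the lowest library and the groups did not overlap. Cyp2c54 was 0.156, 0.156 and 0.192 of the Cyp2c50 FPKM in WT and 0.356, 0.268 and 0.249 in Cys52Ser, without overlap and not tested.

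The other abundant 2C genes moved less. Cyp2c70, which makes the muricholic acids typical of mouse bile, was 143, 114 and 246 CPM in WT and 380.2, 253 and 322 CPM in Cys52Ser (log2 fold change 0.92, adjusted p = 0.129). Cyp2c23, an arachidonate epoxygenase, was 162, 206 and 237 CPM in WT and 321, 273 and 347 CPM in Cys52Ser (0.64, adjusted p = 0.0845). Cyp2c68 was 120.2, 159.7 and 177 CPM in WT and 205, 199 and 249.9 CPM in Cys52Ser (0.52, adjusted p = 0.137). All 3 were separate between groups on this scale and missed the threshold, Cyp2c70 and Cyp2c68 overlapped in FPKM, and with hepatocyte scaling Cyp2c23 was at -0.01 and Cyp2c68 at -0.13. Cyp2c67, Cyp2c68 and Cyp2c69 are near-copies (97.7% coding identity between Cyp2c67 and Cyp2c69, 97.1% between Cyp2c67 and Cyp2c68) and are uncertain for that reason.

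Cyp2c29, an epoxygenase induced through CAR and PXR, was 25.4, 33.7 and 25.5 CPM in WT and 33.6, 69.5 and 80.8 CPM in Cys52Ser. Cys52Ser replicate 1 fell inside the WT range, and the log2 fold change was 1.12 (adjusted p = 0.0950). The gene overlaps 5581 bases of the pseudogene Cyp2c53-ps. Cyp2c38 (0.07), Cyp2c39 (0.87), Cyp2c40 (0.63) and Cyp2c69 (0.19), all known as higher in females, did not pass. Cyp2c55 was at 1.68, 1.99 and 1.88 FPKM in WT and 0.418, 1.10 and 1.23 FPKM in Cys52Ser, the 1 member lower without overlap in FPKM, but its CPM groups overlapped and its log2 fold change of -0.67 did not pass (adjusted p = 0.404).

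In subfamily 2D, the mouse counterpart of a single human drug-metabolising gene, all 8 members had a log2 fold change above 0 (0.15 to 1.36). Both ends of that range were imprecise, Cyp2d12 at 0.15 (SE 0.77) and Cyp2d34 at 1.36 (SE 1.06, with 70 counts over the 6 libraries). Cyp2d26, at chr15:82790101-82794294 on the minus strand, was the member with the smallest adjusted p. It was 537, 533 and 534 CPM in WT and 968, 982 and 1283 CPM in Cys52Ser. On this scale the WT livers were almost identical and every Cys52Ser liver was far above them. The log2 fold change was 1.01 (SE 0.16, 2.01-fold, edgeR adjusted p = 0.0243). In FPKM Cyp2d26 varied more among WT livers, at 322.6, 299.6 and 273.6 against 418, 465 and 523 in Cys52Ser, also without overlap. Its nearest family member, Cyp2d11, shares 81.8% of its coding bases. With hepatocyte scaling the log2 fold change was 0.32 (adjusted p = 0.195).

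Cyp2d10 was 344, 322 and 459 CPM in WT and 605, 499.6 and 689 CPM in Cys52Ser, separate between groups, with a log2 fold change of 0.67 (adjusted p = 0.0933). Cyp2d40 was 29.6, 13.2 and 33.3 CPM in WT and 72.5, 51.2 and 70.4 CPM in Cys52Ser, also separate (1.35, adjusted p = 0.0764). Cyp2d9, a testosterone hydroxylase typical of males, was 315, 89.9 and 324 CPM in WT and 574, 301 and 435 CPM in Cys52Ser. Here the groups overlapped, WT replicate 2 was far below the rest, and the log2 fold change was 0.85 with it and 0.40 without it (adjusted p = 0.377 and 0.509). The Cyp2d9 row also spans the pseudogenes Gm46501 and Gm49421 on its strand.

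Subfamily 2J makes epoxides of arachidonic acid. Cyp2j5, its main liver form, was 209, 171 and 295 CPM in WT and 388, 315 and 389 CPM in Cys52Ser, separate between groups on this scale but not in FPKM, with a log2 fold change of 0.69 (adjusted p = 0.112). Cyp2j6, more widely expressed, was not separate between groups, at 67.1, 57.5 and 72.9 CPM in WT and 75.3, 64.0 and 78.6 CPM in Cys52Ser (log2 fold change 0.14, 95% interval -0.16 to 0.44, adjusted p = 0.582). Its direction depended on scaling, at -0.21 with library totals and -0.54 with hepatocyte scaling. Cyp2j9 was separate between groups at a low level, 0.882 to 1.34 FPKM in WT and 1.35 to 1.80 FPKM in Cys52Ser (0.79, adjusted p = 0.118), and Cyp2j8 and Cyp2j13 had too few counts to test (23 and 14 over the 6 libraries).

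The small subfamilies are mostly known for work outside the liver, apart from Cyp2r1, the vitamin D hydroxylase. Cyp2r1 was 7.22, 7.37 and 12.1 CPM in WT and 9.42, 9.90 and 12.8 CPM in Cys52Ser, overlapping, with a log2 fold change of 0.27 (95% interval -0.30 to 0.84, adjusted p = 0.578) and a direction that was below 0 with library totals (-0.07) and with hepatocyte scaling (-0.36). Cyp2u1, a fatty acid hydroxylase, was 4.51 to 10.2 CPM over the 6 libraries with a log2 fold change of 0.07. Cyp2g1, an enzyme of olfactory mucosa, was under 1 FPKM in every library (-0.03), and Cyp2t4 had 44 counts in all and was not tested.

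Cyp2s1, an enzyme of epithelia, was 3.43, 2.89 and 3.62 CPM in WT and 3.18, 26.8 and 0.211 CPM in Cys52Ser. A single library, Cys52Ser replicate 2, was high, and the log2 fold change was 1.60 with it and -0.96 without it. Cyp2c65, a gut member of 2C, had the same library out of range, at 5.56 CPM against 0.230 to 0.885 CPM in the other 5, and went from 2.01 to -0.29 without it. In that library the pancreatic marker Clps was 203 CPM (0 to 28.9 elsewhere), and the epithelial markers Krt19 and Muc1, picked after their values were seen, were 61.6 CPM (5.61 to 25.4 elsewhere) and 16.8 CPM (1.80 to 11.3). The summed pancreatic markers were 288 FPKM there (3.77 to 49.0 elsewhere), nearly all of it Clps, while the digestive enzyme genes Prss2 and Cela3b were listed at 0 and Ctrb1 was 0.176 FPKM. The summed cholangiocyte markers, at 52.6 FPKM, lay inside the WT range of 27.6 to 76.3, and so did the summed intestinal markers, at 68.2 FPKM against 49.0 to 84.9. The part of other tissue in the Cyp2s1 and Cyp2c65 values was not tested.

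The lowest and highest values of many members fell in a few libraries. WT replicate 2 was the lowest of the 6 libraries for 19 of 38 tested members (50.0%), against 16.1% of all tested genes. These included Cyp2e1, Cyp2c37, Cyp2c50, Cyp2c54, Cyp2c70, Cyp2d9 and Cyp2d40, whereas Cyp2a4 was highest there. Glul and Nr1i3 were lowest there too. WT replicate 1 was the lowest for 12 of 38 (31.6%), against 17.6% of all genes. Cys52Ser replicate 3 was the highest for 24 of 38 (63.2%), against 22.9% of all genes. Most members were higher in Cys52Ser, whereas the all-gene shares cover genes of either direction. The shares among genes that were higher in Cys52Ser were not computed.

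**Figure D3:**
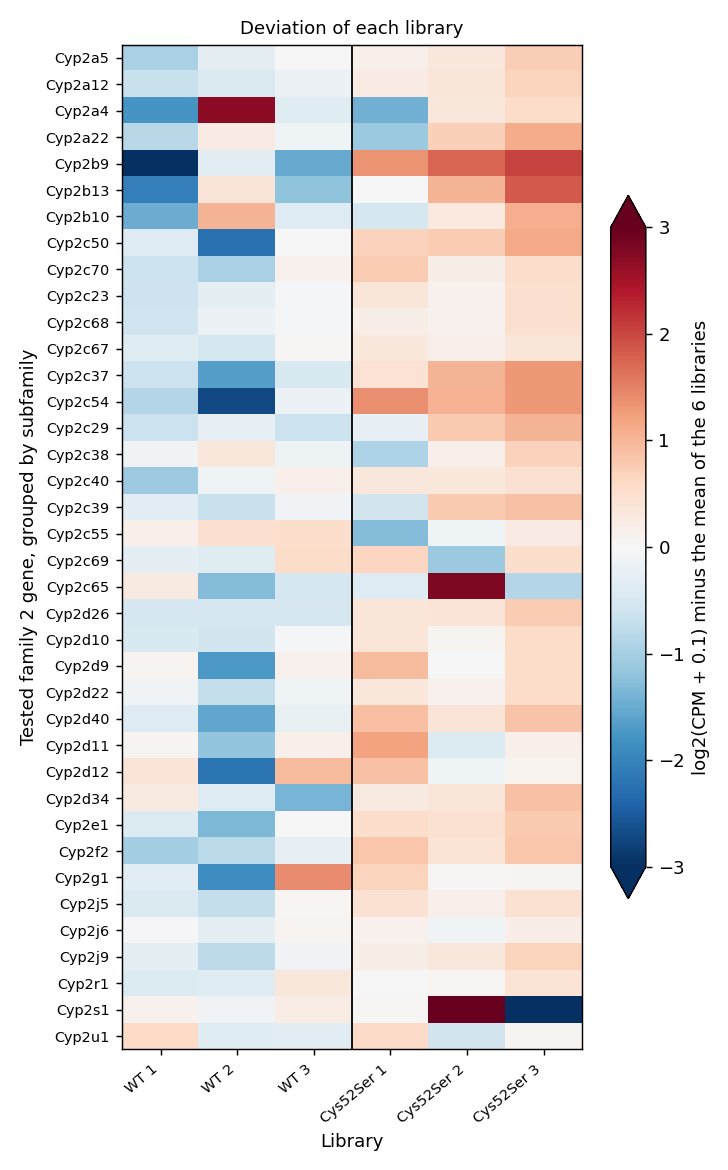
log2(CPM + 0.1) minus the mean of the 6 libraries (colour, capped at 3 either way) for each tested family 2 gene (rows) and library (columns, WT left of the line). WT replicate 2 is lowest for 19 of 38 genes and Cys52Ser replicate 3 highest for 24, while the dark cells for Cyp2a4, Cyp2s1 and Cyp2c65 are single libraries.

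The calls rested on few libraries. Leaving out WT replicate 2, Cys52Ser replicate 1 or Cys52Ser replicate 3 left 0 members called by edgeR, and also lowered the calls over all genes from 928 (4.98%) to 57, 31 and 28. Without WT replicate 1 only Cyp2d26 passed, and without Cys52Ser replicate 2 Cyp2d26 and Cyp2f2 passed. Without WT replicate 3 there were 6: Cyp2a12, Cyp2d26, Cyp2f2, Cyp2c67, Cyp2c70 and Cyp2j5. Cyp2c37 lost its call there. The range of all-gene calls with each library left out is given further below. The median of the 38 members was between 0.63 and 0.88 in these 6 fits, with 32 to 34 members above 0. Leaving out WT replicate 2 gave log2 fold changes of 0.95 for Cyp2d26 (adjusted p = 0.0715), 1.24 for Cyp2f2 (0.0946), 1.46 for Cyp2c37 (0.0715) and 0.78 for Cyp2a12 (0.129). Over all alternatives run, DESeq2 included, the adjusted p ranged from 1.99e-09 to 0.195 for Cyp2d26, 1.92e-08 to 0.103 for Cyp2f2, 7.97e-08 to 0.131 for Cyp2c37, 4.79e-05 to 0.322 for Cyp2a12, 0.00256 to 0.219 for Cyp2b9 and 0.00105 to 0.293 for Cyp2e1.

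The make-up of family 2 RNA, which does not depend on library scaling, was measured as each gene's share of the family's summed FPKM. Cyp2e1 held 53.1%, 35.3% and 51.6% in WT and 51.0%, 51.8% and 50.8% in Cys52Ser. The Cys52Ser livers were alike, and WT replicate 2 was the 1 liver with a smaller share. The 12 leading genes held 87.7% to 93.9% of the family. Of their shares, that of Cyp2c50 was higher without overlap (SD over n = 3: 2.06% ± 0.969 in WT against 3.05% ± 0.204 in Cys52Ser, by exact permutation test p = 0.1, the smallest it can give, and 0.24 adjusted over 12 shares). The shares of Cyp2d10, Cyp2j5, Cyp2c23 and Cyp2c68 were lower without overlap, at the same p. For Cyp2d10 the share was 6.07% ± 0.681 in WT and 4.77% ± 0.306 in Cys52Ser (SD).

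**Figure D4:**
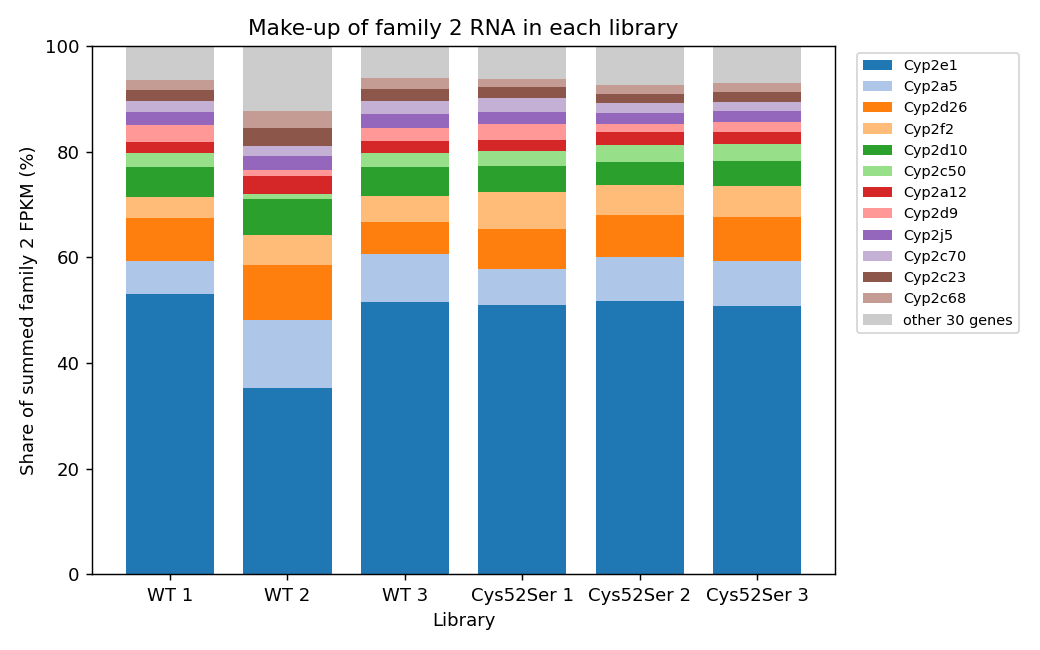
Share of each of the 12 leading genes and of the other 30 together in summed family 2 FPKM (percent, y axis) for each library (x axis). Cyp2e1 takes 35.3% in WT replicate 2 and 50.8% to 53.1% in the other 5.

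Genes that work with the family were measured beside it. P450 oxidoreductase, Por, the electron donor of these enzymes, was 182, 326 and 348 CPM in WT and 781, 610.0 and 814 CPM in Cys52Ser. It rose without overlap by a log2 fold change of 1.37 (edgeR adjusted p = 0.0382). Of 16 redox partners and haem synthesis genes (median 0.36), 2 rose, against 2.52% of all tested genes. They were Por and the haem enzyme Cpox (1.38, edgeR adjusted p = 0.0165).

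Of 35 regulators of P450 genes 6 rose, against 2.52% of all genes, and their median was 0.37. The 4 with the smallest p were Foxa3 (1.29), Hlf (1.58), Ppara (1.47) and Hnf4a (0.92, adjusted p = 0.0355), transcription factors of hepatocyte identity, circadian output and fatty acid use. Nr1i3, which encodes CAR, was 126, 41.6 and 126 CPM in WT and 401, 293 and 364 CPM in Cys52Ser (log2 fold change 1.85, adjusted p = 0.0562). Nr1i2, which encodes PXR, was 51.6, 61.0 and 65.3 CPM in WT and 105, 71.9 and 103 CPM in Cys52Ser (0.65, adjusted p = 0.0745). Both receptors were separate between groups and missed the threshold.

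Of 19 genes of arachidonate release and conversion and of epoxide hydrolysis (median 0.39), 1 rose, against 2.52% of all tested genes. It was Ptgs1, a cyclooxygenase (0.76, edgeR adjusted p = 0.0362). On the TMM scale 5 of the 19 were higher and 1 lower without overlap, against 14.4% and 15.2% of all tested genes. Their summed FPKM went the other way, at 443 to 455 in WT and 349 to 394 in Cys52Ser, lower without overlap. The epoxide hydrolase gene Ephx2, whose enzyme acts on fatty acid epoxides, was 326, 325 and 385 CPM in WT and 504, 488 and 597 CPM in Cys52Ser (0.62, adjusted p = 0.0584). Ephx1, whose enzyme acts on toxicants, overlapped between groups (-0.32, adjusted p = 0.341).

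Since all mice were male, the members known to differ by sex were set side by side. Of the 9 female-biased members (Cyp2a4, Cyp2b9, Cyp2b10, Cyp2b13, Cyp2c38, Cyp2c39, Cyp2c40, Cyp2c69 and Cyp2g1), edgeR called 0 and gave 1 an unadjusted p under 0.05, DESeq2 called Cyp2b9, and the median was 0.43. Of the 4 male-biased members (Cyp2a12, Cyp2d9, Cyp2f2 and Cyp2u1) 2 rose, and the median was 0.84. Outside the family, 5 of 21 tested female-biased genes (median 0.42) rose and 2 fell. Over all tested genes, edgeR called 2.52% higher and 2.46% lower. The female-biased genes with the smallest p were Acot4 (1.76), Fmo1 (1.31) and Acot3 (3.19) among the higher and Ntrk2 (-1.40) among the lower. Of 28 male-biased genes (median 0.94) edgeR called 0, with 7 higher at an unadjusted p under 0.05, against 11.3% of all genes. DESeq2 called 4 of them, against 7.42% of all genes called higher and 6.77% lower.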

How the data were processed

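Liver RNA from 6 mice was sequenced from poly(A)-selected, strand-marked libraries, per the labels' protocols. The authors deposited 1 table that gives each gene an estimated count (a whole number) and an FPKM in every library, per the file headers. Per the submitters' processing notes, the tools were StringTie 1.3.4d, HISAT2 2.0.4, cutadapt 1.9, UMI-tools, edgeR and DESeq2 and the build mm9, with no roles given. The table's coordinates are nevertheless those of GRCm38: of 28524 identifiers found in GENCODE M21, 89.9% had identical positions, and 38 of 42 members did. For genes of 1 transcript, 89.9% to 92.4% of counts in a library equalled FPKM multiplied by length and a constant to within 1%, so the deposited counts are coverage-based estimates and not tallies of reads, and precision beyond the spread between mice cannot be read from them.

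Counts were tested as deposited with edgeR 4.0.16 (R 4.3.3; quasi-likelihood, robust, TMM, filterByExpr with a minimum count of 10, genotype as the only term, all 6 libraries), with Benjamini-Hochberg adjustment over 18648 genes at 0.05; the procedure was tested on simulated data. CPM values are scaled by TMM. Shares and ratios used FPKM and exact two-sided permutation tests (scipy 1.17.1), whose smallest p is 0.1 for 3 against 3. The alternatives were RLE size factors, library totals, no count filter, DESeq2 1.42.0, a replicate block, each library left out, and limma 3.58.1 on log2(FPKM + 0.5) or log2(FPKM + 0.1); scaling on hepatocyte markers and limma on TMM-rescaled FPKM were added after seeing the data. The labels name no batch. No pair of libraries held identical values.

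Full values per library are given for called members, the 12 most abundant, and Cyp2b10 and Cyp2r1; from each pathway list the called genes are named, or the 4 with the smallest p, and always Por, Nr1i3, Nr1i2, Hnf4a, Ephx1, Ephx2 and Glul. Cyp2a4, Cyp2b9, Cyp2s1, Cyp2c65, other members with values and the cell type markers named were picked after their values were seen. The members and the gene lists were chosen with earlier results of these data known. Identity between members was computed on coding sequences of GENCODE M21 (Biopython 1.88, Python 3.11.15) in place of the proteins first planned, and members with another at 95% or more are reported as uncertain.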

Additional observations from a re-analysis of the deposited data

How the results depend on the processing

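The 4 members were called with RLE size factors too. Other settings moved the counts, and the causes were not tested. Counts of calls in this section are in either direction, and list calls were not split by direction. DESeq2 called 2475 genes, 19 members, 5 redox and haem genes, 16 regulators, 11 female-biased, 4 male-biased, 10 pericentral, 14 periportal and 4 arachidonate genes. Library totals gave 3017 genes, 4 redox and haem, 2 male-biased and 2 arachidonate genes. Limma on log2(FPKM + 0.5) gave 2820, 4, 3 and 2 of these, and on log2(FPKM + 0.1) it gave 2908, 4, 2 and 2; without a filter it called 2 members and 1 male-biased gene. Hepatocyte scaling gave 4411 genes, 2 members, 6 redox and haem, 4 male-biased and 3 arachidonate genes. Over all genes, most calls were lower with hepatocyte scaling (4318 of 4411) and library totals (2724 of 3017). The same held in limma on log2(FPKM + 0.5) (2498 of 2820), so larger list counts are not counts of genes that rose. RLE size factors and the lack of a count filter each gave 1 male-biased gene, and without that filter Cyp2c37 lost its call.

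Whether the replicate numbers pair the mice is not stated. Deviations of same-numbered libraries correlated at -0.0389, 0.137 and 0.0182, and those of differently numbered libraries at -0.0967 to 0.109. With 3 libraries per group, these values cannot decide whether mice were paired. A fit with the replicate number as a block called 729 genes and 5 members (Cyp2a12, Cyp2d10, Cyp2d26, Cyp2d40 and Cyp2f2), with 1 redox and haem, 2 male-biased, 2 pericentral and 3 arachidonate genes. Under this block Cyp2c38 was at -0.0638, Cyp2s1 at -0.0791 and Cyp2g1 at 0.81.

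Directions turned only for genes that had not passed. With hepatocyte scaling these were Cyp2c23 (-0.00642), Cyp2u1 (-0.70), Cyp2b10 (-0.20), Cyp2r1 (-0.36), Cyp2c38 (-0.62), Cyp2j6 (-0.54), Cyp2d22 (-0.0654), Cyp2c67 (-0.11), Cyp2c68 (-0.13), Cyp2c69 (-0.47), Cyp2d12 (-0.50), Ephx2 (-0.0489) and Nr1i2 (-0.0108). With library totals they were Cyp2u1 (-0.32), Cyp2r1 (-0.0715), Cyp2c38 (-0.31), Cyp2j6 (-0.21), Cyp2c69 (-0.17) and Cyp2d12 (-0.18). In limma on log2(FPKM + 0.5), with and without the filter, they were Cyp2u1 (-0.20), Cyp2r1 (-0.0453), Cyp2c38 (-0.38), Cyp2j6 (-0.20), Cyp2c69 (-0.16) and Cyp2d12 (-0.0152). On log2(FPKM + 0.1) they were Cyp2u1 (-0.25), Cyp2r1 (-0.0485), Cyp2c38 (-0.40), Cyp2s1 (-0.10), Cyp2g1 (0.13), Cyp2j6 (-0.20) and Cyp2c69 (-0.27), and on TMM-rescaled FPKM Cyp2c38 (-0.0488) and Cyp2g1 (0.0628).

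With each library left out in turn, calls ranged from 28 to 790 for all genes, 0 to 6 for members, 0 to 2 for redox and haem, 0 to 5 for regulators, 0 to 6 for female-biased, 0 to 2 for male-biased, 0 to 2 for pericentral, 0 to 3 for periportal and 0 to 0 for arachidonate genes. The log2 fold change ranged from -0.25 to 0.42 for Cyp2u1, -0.16 to 1.57 for Cyp2b10, -0.34 to 0.40 for Cyp2c38, -0.96 to 2.17 for Cyp2s1, -0.60 to 1.44 for Cyp2g1, -0.29 to 2.60 for Cyp2c65, -1.86 to 0.91 for Cyp2a4, -0.11 to 0.58 for Cyp2c69 and -0.41 to 0.73 for Cyp2d12. The share difference ranged from -1.16 to 7.75 percentage points for Cyp2e1, -2.98 to 0.302 for Cyp2a5, -1.43 to 0.775 for Cyp2d26, -0.538 to 0.0190 for Cyp2a12, -0.684 to 0.341 for Cyp2d9 and -0.302 to 0.126 for Cyp2c70, and the log2 Cyp2e1 to Cyp2f2 ratio from -0.53 to 0.0547.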

Other observations

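Rows named Cyp2 that the naming rule left out were pseudogenes and Cyp2ab1, 9 in all. The most abundant was the transcribed pseudogene Cyp2d37-ps on chromosome 15, at 15.9, 9.40 and 16.4 FPKM in WT and 21.7, 16.7 and 18.2 FPKM in Cys52Ser, where every Cys52Ser library lay above every WT library and WT replicate 2 was the lowest. Cyp2d38-ps was 4.03, 2.36 and 4.97 FPKM in WT and 7.10, 5.85 and 5.11 FPKM in Cys52Ser, also separate between groups. Cyp2a21-ps, which overlaps Cyp2a22 on the opposite strand over 7754 bases, was 1.54, 3.75 and 3.88 FPKM in WT and 2.92, 4.42 and 7.10 FPKM in Cys52Ser, with overlap. These levels were not tested.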
